A study of Homo sapiens with 2 samples.

Results

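The genes described here are 10 genes whose products regulate RAS-ERK or other MAP kinase signalling. They comprise 6 dual-specificity phosphatase genes (DUSP1, DUSP2, DUSP4, DUSP5, DUSP6 and DUSP7), the Sprouty genes SPRY2 and SPRY4, and the Tribbles pseudokinase genes TRIB1 and TRIB2. They were chosen by gene symbol, with their response to a MEK inhibitor already known, out of 13763 named genes on the array, and 12 probe sets read them. Total RNA came from S2-013, a pancreatic cancer cell line, and was hybridised to Affymetrix whole-transcript arrays. The cells of both arrays carried a knockdown of HOXB7, a homeobox transcription factor, and a plasmid that puts HOXB7 back. One culture received a MEK inhibitor and the control culture received none, with 1 array for each. No source used here names the inhibitor, its dose or its exposure time. Parental and knockdown-only cells were not analysed here, so a response could not be tied to HOXB7.

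ERK is the last kinase of the RAS-RAF-MEK-ERK cascade, and MEK is the kinase that activates it. ERK signalling induces several of its own inhibitors, so in many cells a fall in their transcripts is read as a fall in ERK output. DUSPs remove phosphate from the activation loop of MAP kinases. Sproutys dampen the signal between receptor tyrosine kinases and RAF. Tribbles proteins are catalytically weak or inactive pseudokinases that bind MAP kinase kinases and bring substrates to the COP1 ubiquitin ligase.

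The 250 bases before the transcription start are shown for 5 of the genes, to set DUSP1 and DUSP2, which were not lower by 2-fold, beside DUSP6, SPRY4 and SPRY2, which were. Sequences and coordinates come from a table of RefSeq promoters on GRCh38.p14, in which 7 of the 10 genes were matched (DUSP1, DUSP2, DUSP6, DUSP7, SPRY2, SPRY4 and TRIB2), and are written 5′ to 3′ on the strand of the gene. SPRY2 has 3 listed starts, and the window with the highest coordinates is printed. Capitals mark every match, on either strand, to 8 motifs. These were TGACGTCA, the cyclic AMP response element, and the shorter TGACG inside it. TGANTCA is the AP-1 site. CCGGAAGT is an ETS factor site with the core CCGGAA inside it. The TATA box was searched as TATAAA. The E-box was searched as CACGTG. The last was the CArG box of serum response factor, which allows A or T at its inner positions.
DUSP1 (chr5:172771196-172771445, minus strand): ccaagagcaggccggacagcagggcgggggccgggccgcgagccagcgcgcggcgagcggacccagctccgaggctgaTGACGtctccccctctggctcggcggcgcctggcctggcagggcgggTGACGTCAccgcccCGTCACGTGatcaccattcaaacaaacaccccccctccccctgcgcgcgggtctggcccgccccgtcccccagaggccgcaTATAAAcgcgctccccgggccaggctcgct
DUSP2 (chr2:96145441-96145690, minus strand): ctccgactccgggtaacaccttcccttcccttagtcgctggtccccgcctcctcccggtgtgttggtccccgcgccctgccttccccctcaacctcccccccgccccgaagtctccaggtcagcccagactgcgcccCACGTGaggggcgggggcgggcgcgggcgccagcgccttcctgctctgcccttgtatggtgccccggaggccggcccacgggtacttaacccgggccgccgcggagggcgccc
DUSP6 (chr12:89352502-89352751, minus strand): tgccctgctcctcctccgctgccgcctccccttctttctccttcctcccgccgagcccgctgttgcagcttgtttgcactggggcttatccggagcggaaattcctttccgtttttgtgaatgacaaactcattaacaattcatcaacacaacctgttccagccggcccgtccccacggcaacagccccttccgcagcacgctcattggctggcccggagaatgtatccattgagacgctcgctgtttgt
SPRY4 (chr5:142324248-142324497, minus strand): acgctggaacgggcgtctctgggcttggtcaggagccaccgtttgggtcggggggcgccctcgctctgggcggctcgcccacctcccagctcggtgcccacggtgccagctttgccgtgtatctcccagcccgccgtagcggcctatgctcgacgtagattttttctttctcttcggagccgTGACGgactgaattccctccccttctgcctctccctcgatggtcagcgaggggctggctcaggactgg
SPRY2 (chr13:80341127-80341376, minus strand): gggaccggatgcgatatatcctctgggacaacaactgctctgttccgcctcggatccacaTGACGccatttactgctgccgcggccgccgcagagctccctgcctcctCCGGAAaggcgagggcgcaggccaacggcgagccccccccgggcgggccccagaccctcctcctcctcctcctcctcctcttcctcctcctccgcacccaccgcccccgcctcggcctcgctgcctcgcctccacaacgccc

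The promoter window of DUSP1 held the most kinds of match. It contained TGACGTCA at 125 bases before the start and TATAAA at 30, and CACGTG at 108 bases overlapped a TGACG match on the opposite strand at 111. TGACGTCA was found in 1.65% of all 35116 windows, TATAAA in 10.7% and CACGTG in 6.34%. The core TGACG, which the full element contains, was found in 21.2% of all windows, and among the members in DUSP1, SPRY4 (68 bases before the start) and the printed SPRY2 window (190 bases). CCGGAA, found in 14.5% of all windows, occurred in that SPRY2 window at 142 bases. DUSP2 held CACGTG at 113 bases. No match was found in the windows of DUSP6, DUSP7 and TRIB2 or at the other SPRY2 starts. TGANTCA, CCGGAAGT and the CArG box, which occur in 6.57%, 3.42% and 1.16% of all windows, matched in no member window. These are letter matches in short windows and not sites of binding.

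Values are on the log2 scale as deposited, so a difference of 1 is 2-fold, and all differences are inhibitor minus no inhibitor. No value has a replicate error and no test was run. Genes were counted if at least 1 of their values was at or over 4.78, called the floor, which is the median of the means of all named genes. This left 7164 genes. When a gene had more than 1 probe set, the brightest stood for it. Both arrays had nearly equal medians (3.46 with and 3.49 without the inhibitor), and the median difference of all genes above the floor was 0.03. HOXB7 read 5.85 with and 5.84 without the inhibitor. All 7 named epithelial markers were above the floor, and 4 of them were lower and 3 higher with the inhibitor. SOX9, a duct transcription factor gene, read 8.03 without and 6.79 with the inhibitor, the 1 marker changed by 2-fold. The claudin gene CLDN4 read 4.90 without and 5.85 with it. The smallest differences were those of EPCAM (10.5 in both arrays) and KRT19 (8.94 without and 8.87 with the inhibitor). Both named fibroblast markers, DCN and LUM, and both named acinar and endocrine markers, CPA1 and GCG, were below the floor in both arrays. Of 4 named endothelial markers 1 reached it (CLDN5, 5.24 with and 5.30 without the inhibitor), and of 3 named leukocyte markers 2 did (CD68, 8.53 with and 8.95 without it, and TYROBP, 4.46 with and 4.85 without it). The part of these markers in the results was not tested.

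With the inhibitor, 9 of the 10 genes were lower and 6 of them at least 2-fold lower, while DUSP1 was the 1 gene that was higher. Over all genes, a 2-fold lower signal was read for 1.05% of the 7164 genes, a 2-fold higher one for 0.628%, and a lower one of any size for 46.1%. The members were chosen with these differences known, so their count of 6 is a description and supports nothing beyond itself. At 1.5-fold 7 members were lower, beside 3.6% of all genes lower and 4.62% higher, and at 3-fold 2 members were lower, beside 0.195% and 0.0838%. When the 7164 genes were cut into 4 equal bins of signal level, the 6 genes lay in all of them: SPRY2 in the lowest, DUSP6 and SPRY4 in the next, DUSP4 and DUSP5 in the third and TRIB1 in the highest. In these bins 1.23%, 0.67%, 1.12% and 1.17% of all genes were at least 2-fold lower. The median difference of the 10 genes was -1.07. All 10 reached the floor without the inhibitor. With it, DUSP7, SPRY2, SPRY4 and TRIB2 were below the floor, and 3.64% of all genes likewise passed from above to below it. These 4 passed the filter through the array without inhibitor alone, and their signals with the inhibitor were dim.

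**Figure D1:**
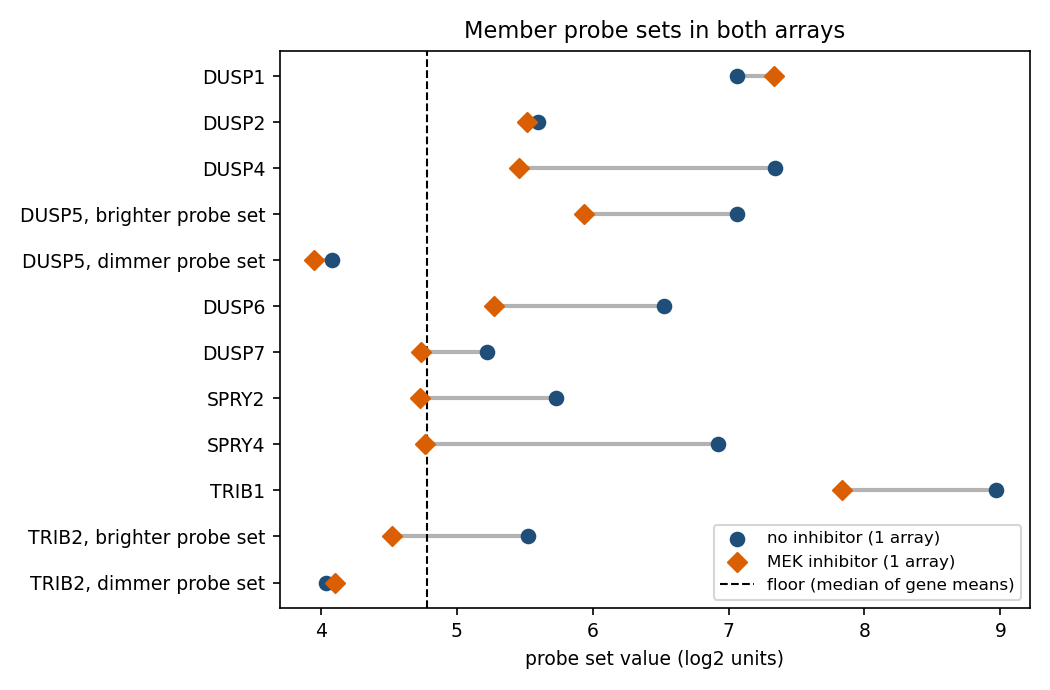
Values of the 12 member probe sets in log2 units, with blue circles for the array without inhibitor, orange diamonds for the array with MEK inhibitor and a dashed line at the floor of 4.78. SPRY4 and DUSP4 show the longest distances, DUSP1 is the 1 brightest probe set that is higher with the inhibitor, and the dimmer probe sets of DUSP5 and TRIB2 lie below the floor in both arrays.

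The nuclear, inducible phosphatases are DUSP1, DUSP2, DUSP4 and DUSP5, and they did not move alike. DUSP4, which acts on ERK and on other MAP kinases, read 7.34 without and 5.45 with the inhibitor. That is 3.69-fold lower, 27.1% of the control signal, and the value with the inhibitor stayed above the floor. Its difference of -1.88 was the 9th lowest of the 7164 genes. DUSP5, which is selective for ERK and holds it in the nucleus, read 7.06 without and 5.93 with the inhibitor in its brighter probe set (16709128). The difference was -1.13, 2.19-fold lower, at rank 56 from the lowest.

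DUSP1 read 7.06 without and 7.33 with the inhibitor, 1.21-fold higher, and 1432 of the 7164 genes had a higher difference. DUSP1 is an immediate early gene that stress signals through p38 and JNK also induce. DUSP2, known for its expression in activated lymphocytes, read 5.60 without and 5.52 with the inhibitor. Its difference of -0.08 lay inside the bulk of all genes, of which 33.8% were lower.

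Among the cytoplasmic, ERK-selective phosphatases, DUSP6 was lower by more than its close relative DUSP7. DUSP6, a standard readout of ERK output, read 6.53 without and 5.27 with the inhibitor, 2.39-fold lower at rank 34. DUSP7 read 5.22 without and 4.73 with the inhibitor, which is 71.2% of the control signal. Its difference of -0.49 was at rank 382, so 5.32% of genes were lower. DUSP7 started 0.44 above the floor and ended just under it, so its fold ends in dim signal. The gap between DUSP6 and DUSP7 was 0.76 on the log2 scale. This gap lay between 0.56 and 0.80, which are 95th percentiles of probe set disagreement described below. The remaining gene of this class, DUSP9, was below the floor in both arrays (3.88 without and 3.75 with the inhibitor).

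**Figure D2:**
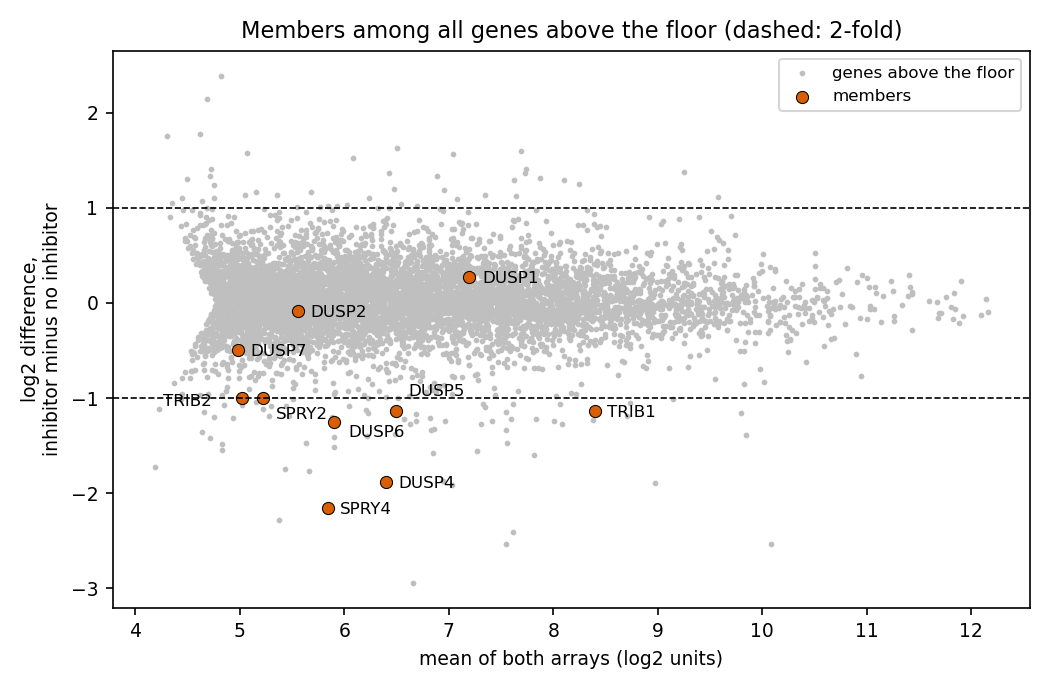
Difference between the arrays (log2, inhibitor minus no inhibitor) against the mean of both arrays for the 7164 genes above the floor, in grey, with the 10 members in orange and dashed lines at 2-fold. SPRY4 and DUSP4 lie below almost all other genes, DUSP5, DUSP6 and TRIB1 past the lower line, SPRY2 and TRIB2 on it, and DUSP1, DUSP2 and DUSP7 within or at the edge of the grey cloud.

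Of the Sproutys, SPRY4 had the lowest difference of all members. It read 6.92 without and 4.77 with the inhibitor, 4.44-fold lower and 22.5% of the control signal, and 5 of the 7164 genes had a lower difference. SPRY2 read 5.73 without and 4.72 with the inhibitor, a difference of -1.002. The differences of the Sproutys were thus 1.15 apart on the log2 scale, and both genes ended just under the floor, so both folds end in dim signal. SPRY3 was the other Sprouty gene named on the array, and it stayed below the floor in both arrays (4.66 without and 4.54 with the inhibitor in its brighter probe set).

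TRIB1 and TRIB2 were lower by similar amounts in their brighter probe sets. TRIB1 read 8.97 without and 7.83 with the inhibitor, both far above the floor, for a 2.19-fold lower signal at rank 55. TRIB2 read 5.52 without and 4.52 with the inhibitor in the brighter probe set (16877297), a difference of -0.998. The gap between the relatives was -0.14. TRIB3, which is known to be induced when amino acids run short or the endoplasmic reticulum is stressed, went the other way, reading 7.32 without and 7.67 with the inhibitor. SPRY2 at rank 75 and TRIB2 at rank 76 stand on either side of the 2-fold threshold and differ by 0.004, so the count of 6 turns on a distance smaller than any error here. The count was 7 when the median difference or a loess trend was subtracted.

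The second probe sets of DUSP5 and TRIB2 did not show the differences of the first. DUSP5's dimmer probe set (16718386) read 4.08 without and 3.95 with the inhibitor, a difference of -0.13. TRIB2's dimmer probe set (16894581) read 4.04 without and 4.10 with the inhibitor, a difference of 0.06. Both were below the floor in both arrays. Within DUSP5 the probe sets were therefore apart by 0.9998 on the log2 scale and within TRIB2 by 1.06. TRIB1 minus TRIB2 was -1.19 when the dimmer probe set stood for TRIB2, and -0.66 when both were averaged.

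The identifiers of these probe sets also differ in position. Probe set numbers on this array run along each strand in turn: of 10903 named probe sets with a clear neighbourhood, 96.9% lay among genes of their own strand. A neighbourhood was called clear when at least 14 of the 20 nearest named probe sets with a known strand lay on one strand. TRIB2 lies on the plus strand. Its brighter probe set had 20 of 20 plus-strand neighbours, and its dimmer one had 20 of 20 minus-strand neighbours. For DUSP5 the brighter probe set had 19 of 20 plus-strand neighbours and the dimmer one 19 of 20 minus-strand neighbours. The other members with a clear neighbourhood (DUSP1, DUSP2, DUSP6, DUSP7, SPRY2 and SPRY4) all lay among genes of their own strand. Of the probe sets among genes of the other strand, 28.7% reached the floor, against 54.2% of those among genes of their own. No source used here gives the strand that each probe set reads, and whether the dimmer ones read the messenger RNA was not tested.

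The disagreement between probe sets of 1 gene was the only error that could be measured, and it covers probe error but not variation between cultures. Among 443 pairs of probe sets above the floor, from 145 genes, 95% disagreed by less than 0.80. That figure rests largely on 2 genes: PPIP5K1, with 18 probe sets, and RASA4, with 7, gave 39.3% of the pairs and all 9 pairs that disagreed by 2-fold or more. Without these genes the 95th percentile was 0.49 over 269 pairs, and with 1 value per gene it was 0.56. The largest gap among the other 143 genes was 0.96, so the gaps within DUSP5 and TRIB2 exceed it, although their dimmer probe sets lie below the floor and the pairs compared do not.

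**Figure D3:**
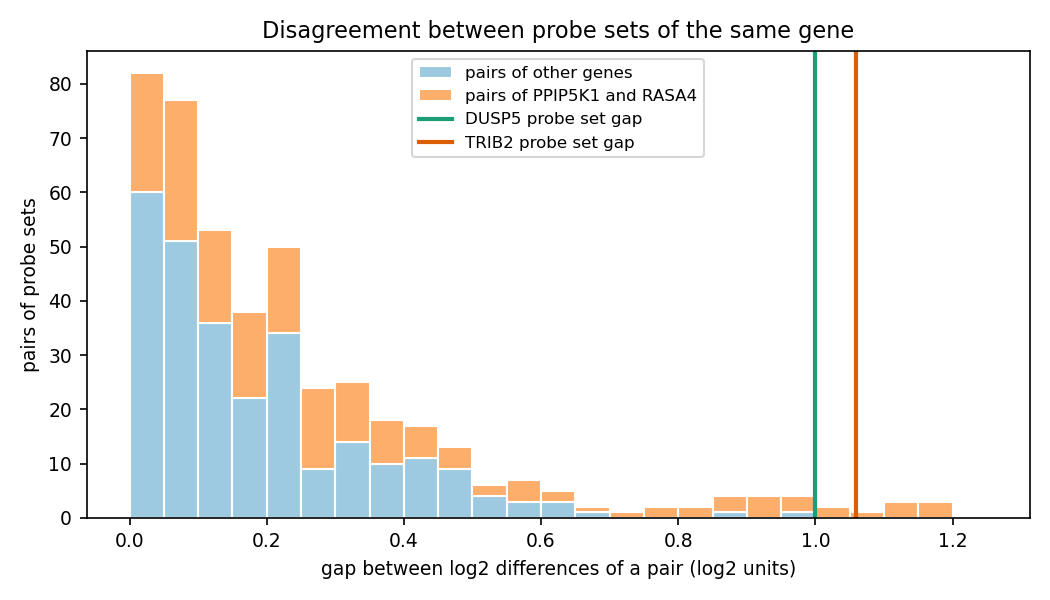
Gaps between the log2 differences of 2 probe sets of the same gene, for 443 pairs above the floor, with pairs of PPIP5K1 and RASA4 in orange and pairs of the other 143 genes in blue. The vertical lines give the gaps within DUSP5 (0.9998) and TRIB2 (1.06), whose dimmer probe sets are below the floor, and only pairs of PPIP5K1 and RASA4 reach that far.

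From lowest to highest difference the order was SPRY4, DUSP4, DUSP6, TRIB1, DUSP5, SPRY2, TRIB2, DUSP7, DUSP2 and DUSP1. None of the 9 steps between neighbours exceeded 0.80, and 1 exceeded 0.56, the step of 0.63 from DUSP4 to DUSP6. DUSP4, DUSP5 and DUSP6, grouped here as phosphatases induced through ERK, had a median difference of -1.26, against -0.08 for DUSP1, DUSP2 and DUSP7. Whether ERK also induces DUSP1, DUSP2 and DUSP7 was not tested. The smallest gap across these groups, between DUSP5 and DUSP7, was 0.64. This grouping was drawn up with the differences known, so the gaps describe it and do not test it. Probe set disagreement also leaves out variation between cultures, and no measure of that exists for these arrays.

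The other DUSP genes and the related STYX pseudophosphatase genes were mostly higher with the inhibitor where they reached the floor. Of 12 such genes above the floor, 11 were higher and 1 (DUSP11, -0.11) was lower, beside 46.1% of all genes that were lower. Their median was 0.33 against 0.03 for all genes. Genes of the family below the floor went both ways, such as DUSP19 (0.95), DUSP26 (-0.51) and STYXL2 (-0.56). None reached 2-fold, beside the 0.628% of all genes that did. The phosphatases selective for p38 and JNK were all higher. DUSP16 read 5.49 without and 6.36 with the inhibitor, a difference of 0.87, and DUSP10 read 6.84 and 7.20, a difference of 0.35. DUSP8 had a difference of 0.38 but was below the floor in both arrays. Among the atypical DUSPs and STYX genes, most of which lack the MAP kinase binding domain, 9 of the 10 above the floor were higher. DUSP3, which acts on ERK and JNK, read 5.83 without and 6.83 with the inhibitor, just short of 2-fold (difference 0.9999). DUSP14 differed by 0.49 and DUSP28 by 0.44, but DUSP28 was below the floor without the inhibitor (4.44).

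**Figure D4:**
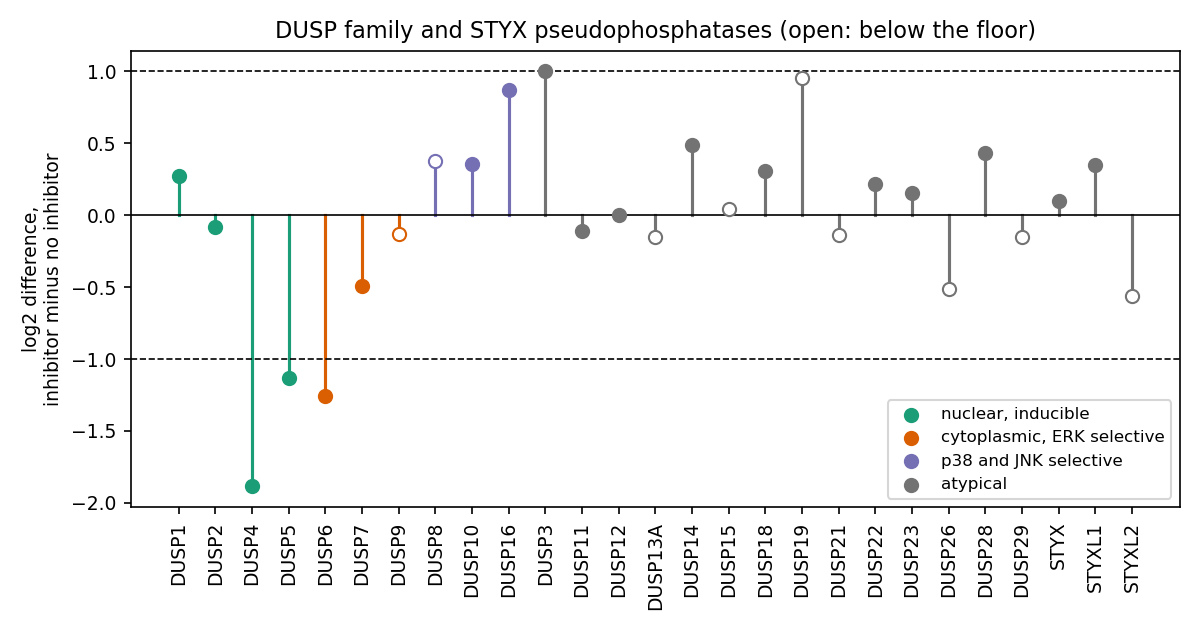
Difference between the arrays (log2, inhibitor minus no inhibitor) for each DUSP gene and the related STYX genes, coloured by class, with filled points for genes above the floor, open points for genes below it and dashed lines at 2-fold. DUSP4, DUSP5 and DUSP6 lie past the lower line, the p38 and JNK selective DUSP8, DUSP10 and DUSP16 lie above 0, and DUSP3 lies on the upper line.

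Components of the cascade itself that were named on the array had a median difference near 0, as did the named partners of the members. Of 21 listed RAS-RAF-MEK-ERK genes, 12 were named. Of 10 RAS-RAF-MEK-ERK genes above the floor, 4 were lower and 6 higher, with a median of 0.02, and no gene reached 2-fold. The largest differences were those of the RAS gene HRAS (-0.59), the adaptor gene SHC1 (-0.28) and the RAS activator gene SOS1 (0.18). In a list of p38, JNK and ERK5 cascade genes 3 were lower and 3 higher above the floor, with a median of 0.02. The higher ones include MAPK7 (0.05), which encodes ERK5 and belongs to neither the p38 nor the JNK cascade. MAP2K4, a kinase that activates JNK, read 4.90 without and 4.18 with the inhibitor, so it ended below the floor. MAPK9, which encodes a JNK, differed by 0.27, and MAPK13, which encodes a p38 kinase, by -0.23. Of 8 listed symbols of Tribbles partners only 3 were named on the array, and COP1 was not among them. These 3, all above the floor, had a median of 0.02, with the kinase gene AKT2 at -0.32, DET1 at 0.22 and AKT1 at 0.02. Of 9 listed Sprouty partners 5 were named, all above the floor. Their median was 0.10, with the kinase genes MKNK1 (0.30), TESK1 (0.12) and DYRK1A (0.10) highest.

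Inhibitors of RAS-ERK signalling outside the members were lower in 5 and higher in 6 of 11 genes above the floor. Their median was 0.04 and no gene reached 2-fold. IL17RD, a transmembrane inhibitor of fibroblast growth factor signalling that is itself known as a feedback gene, read 4.57 without and 5.22 with the inhibitor. This difference of 0.65 starts below the floor. RASA3, a RAS GTPase activating protein, differed by -0.53, and ERRFI1, an inhibitor of the epidermal growth factor receptor, by -0.51. Targets of ERK outside the members were lower in 15 of 15 genes above the floor, beside 46.1% of all genes, with a median of -0.53. Of these, 6 were at least 2-fold lower, beside 1.05% of all genes: EGR1 (-2.94), MMP1 (-2.53), HMGA2 (-1.76), ETV4 (-1.75), ETV1 (-1.72) and ETV5 (-1.55). With the inhibitor ETV1 (3.32), ETV5 (4.06) and ETV4 (4.55) were below the floor and HMGA2 just under it. These genes passed the filter through the array without inhibitor alone, while EGR1 and MMP1 stayed above the floor in both. The listed target CXCL8, with a difference of 0.16, was below the floor in both arrays and not counted. That list was drawn up with earlier results of these arrays known, so it is no independent measure of direction.

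**Figure D5:**
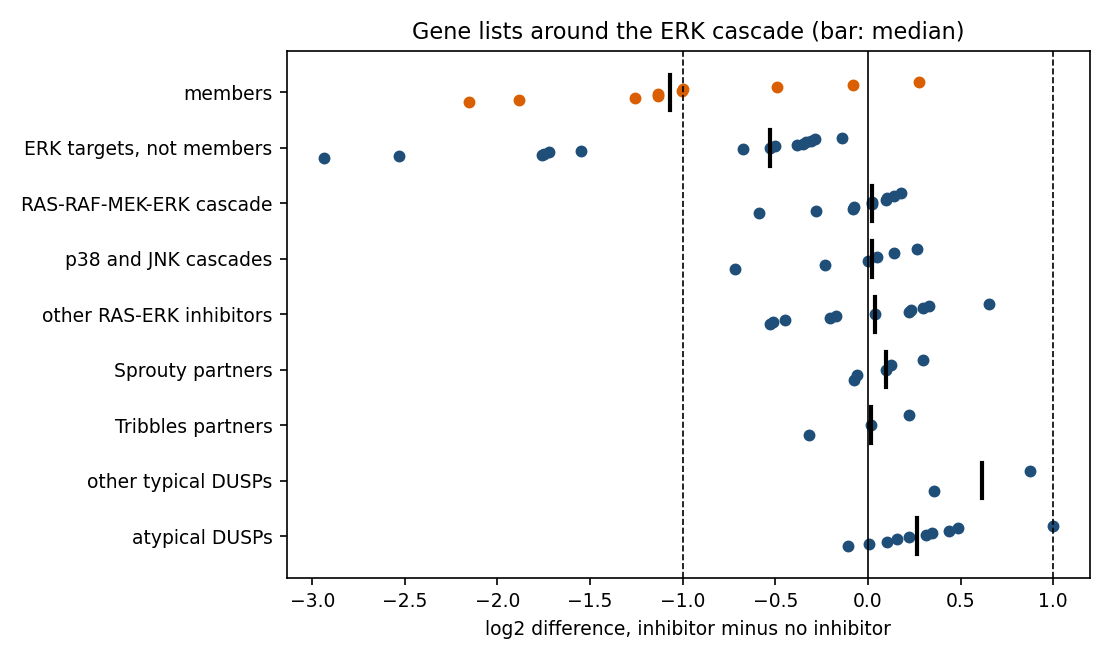
Difference between the arrays (log2, inhibitor minus no inhibitor) for each gene above the floor in 9 lists around the ERK cascade, with members in orange, other lists in blue, black bars at the medians and dashed lines at 2-fold. The members (median -1.07) and other ERK targets (-0.53) lie mostly below 0, the cascades and partners lie around 0, and the remaining DUSPs lie mostly above it. The row of the p38 and JNK cascades also holds the ERK5 gene MAPK7.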

How the data were processed

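RNA was measured on 2 arrays, 1 per group, each assigned from its sample title. The authors made the log2 values with Affymetrix Expression Console 1.3, per the submitters' processing notes, and deposited 1 value for each probe set on each array. No source used here gives its settings, and the log2 scale was inferred from the deposited values (1.16 to 13.4). Methods that equalise quantiles remove global differences, and whole-transcript summaries compress large folds. For arrays, their number limits the precision.

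Of 53617 probe sets, 16098 had a gene symbol in the platform annotation, and 1287 small RNA probe sets (MIR, SCARNA) were set aside. Differences, ranks, counts past 2-fold and list medians were computed with Python 3.11.15, numpy 2.4.6, pandas 2.3.3 and statsmodels 0.14.6, and the counting was tested on simulated data. The members and all lists were chosen with earlier results of these data known. Named genes were all members, and from each other list those changed 2-fold or else the 3 with the largest differences above the floor. Marker genes, some genes below the floor, PPIP5K1, RASA4 and HOXB7 were named besides. The DUSP classes are textbook classes. Alternatives were 2 scalings, 2 filters, 2 probe set rules, thresholds of 1.5-fold and 3-fold, and, added after the data were seen, strand and gene weighting of probe set pairs. A planned search of protein sequences was not run, since protein sequences were not used here.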

Additional observations from a re-analysis of the deposited data

How the results depend on the processing

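No paired analysis was possible because the design holds a single array of each kind, and for that reason no replicate could be left out. The count of members at least 2-fold lower was 6 without a filter, 7 with either scaling or at 1.5-fold, 5 of 6 measured with the 75th percentile floor, 5 with averaged probe sets, 5 of 8 measured with the probe set nearest 0, and 2 at 3-fold. Of 54 member differences recomputed under these alternatives, 52 moved by less than the median probe set disagreement (0.16) and none turned sign past 2-fold. Most of the 54 could not move, since a filter leaves a kept difference unchanged and probe set rules act only on DUSP5 and TRIB2. The 52 is therefore no measure of robustness. DUSP5 (-0.63) and TRIB2 (-0.47) moved when probe sets were averaged. Their probe sets nearest 0 were below the floor and are not among the 54. Averaging also moved the members' median to -0.82 and TRIB1 minus TRIB2 to -0.66. DUSP4, DUSP5 and DUSP6 minus the other DUSPs read -1.53 with the 75th percentile floor, where DUSP2 and DUSP7 dropped out, and -1.49 with the probe set nearest 0, where DUSP5 dropped below the floor. In both settings TRIB2 dropped out, so TRIB1 minus TRIB2 had no value, and with the 75th percentile floor SPRY2 dropped out too. Over all genes, 258 were lower and 331 higher at 1.5-fold, 14 and 6 at 3-fold, and 24 were 2-fold higher with the 75th percentile floor. The 95th percentile of probe set disagreement was 0.53 for pairs among genes of opposite strands, 0.56 with 1 value per gene and 0.49 without PPIP5K1 and RASA4. Signals near the floor limit the folds of SPRY2, SPRY4, TRIB2 and DUSP7.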

Other observations

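Probe sets placed among genes of the other strand did not always miss a gene's difference. Of 276 genes with 1 probe set among genes of each strand, the probe set placed among genes of the gene's own strand was the brighter in 204. In 3 of them that probe set was above the floor and changed by at least 2-fold. EGR1, an early growth response transcription factor, read -2.94 in the probe set among its own strand and -1.19 in the other, which lay below the floor in both arrays (4.73 without and 3.54 with the inhibitor). FXYD6, a regulator of the sodium pump, read 1.17 and 1.57. SULF2, a sulfatase of heparan sulfate, read -1.16 and -0.30. In 2 of the 3 genes the other probe set was thus also changed by 2-fold in the same direction. These genes were named after their values were seen.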
